A study of Mus musculus with 18 samples.

Results

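The genes described here are the interleukins and their receptors, the cytokines through which leukocytes and tissue cells signal to each other and the cell surface proteins that read them. They were taken as every protein-coding gene of the deposited table whose symbol is Il followed by a digit, except Il2ra, Il12rb1, Il12rb2, Il18r1 and Il18rap. The rule gave 75 of the 26538 genes. Of these, 38 had a mean of at least 0.5 FPKM (fragments counted per gene, scaled by gene length and library size) over all tumours, as did 12587 genes of the whole table, and these 38 are described. Il13ra2, at 0.707 FPKM, was the last gene inside that limit, and Il27ra, at 0.451 FPKM, the first outside it.

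RNA was sequenced from 18 mouse tumours in 6 groups of 3. The tumours sequenced had not been treated directly; the mouse had received ablation of a tumour elsewhere, by cryoablation (freezing), by radiofrequency ablation (heating by alternating current) or by cryo-thermal therapy (freezing joined with heating), either by itself or combined with anti-PD-1, which blocks a brake on T cells. Every group thus carried an ablation, and a group without one was not analysed here. Strain, age, tumour line and time of sampling are not given in the sources used here. Whether each tumour had its own animal is not stated either, and the p-values therefore measure the spread between these samples alone, which may be technical.

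The FPKM values of a tumour summed to 408042 to 442383, and the relative sequencing depth read from the steps between low values was 0.985 to 1.018. The tissue is labelled only as tumour. Of 8 genes of epithelium and mammary carcinoma 3, and of 7 genes of melanocytes and melanoma 1, had a mean of at least 0.5 FPKM, with Tyr and Dct, enzymes of pigment synthesis, below 0.1 FPKM in all 18 tumours. All 7 fibroblast genes did, with summed levels of 658 to 2022 FPKM. The tumours stood apart in skin RNA: 12 hair follicle and keratinocyte genes had mean log2(FPKM + 1) levels of 3.46 in cryo-thermal plus anti-PD-1 replicate 1 and of 2.99 and 2.96 in replicates 1 and 2 of cryoablation plus anti-PD-1, and 0.52 to 2.14 in the other 15. The tumours also differed in red cell RNA: 5 erythroid genes summed to 557 to 772 FPKM after cryoablation, 23.6 to 210.4 after cryo-thermal therapy, 36.6 to 992 after radiofrequency ablation, 53.0 to 104 after cryoablation plus anti-PD-1, 45.9 to 95.1 after radiofrequency plus anti-PD-1 and 80.9 to 316 after cryo-thermal plus anti-PD-1, and 5 of 5 fell in cryo-thermal therapy against cryoablation (6.96% of all genes did) and 0 with antibody (limma). The part of red cell RNA in the results was not tested. Counts that rest on the 3 skin-rich tumours are given with and without them, save for contrasts with cryoablation plus anti-PD-1. Without them that group keeps only replicate 3.

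Interleukins act in families that share receptor chains. Members of the common gamma chain family (IL-2, IL-4, IL-7, IL-9, IL-15 and IL-21) signal through Il2rg with a private chain and JAK kinases, and sustain lymphocytes. The IL-1 family (IL-1, IL-18, IL-33, IL-36) signals through MYD88, is driven by myeloid and barrier cells, and is held back by a receptor antagonist, decoy receptors and binding proteins. The IL-6 family shares the chain gp130, encoded by Il6st, and the IL-10 and IL-17 families use receptor pairs of their own. In tumours, gamma chain receptors are best known from T and NK cells and IL-1 from inflammatory myeloid cells.

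Receptors of lymphocyte cytokines were the genes that most often differed, with higher levels after cryo-thermal therapy than after cryoablation. Over the 6 groups, 14 of the 38 genes varied by limma's moderated F test at an adjusted p under 0.05 (36.8%, against 18.0% of all 12587 genes), led by Il15ra (adjusted p = 0.00475) and Il2rg (adjusted p = 0.00475). The others were Il1rl1, Il2rb, Il21r, Il18bp, Il10ra, Il7r, Il16, Il13ra1, Il1r1, Il1a, Il1rn and Il6ra. The count was 6 without cryoablation replicate 1 (6.78% of all genes) and 9 without its replicate 3 (9.64%). Without replicate 1, 2 or 3 of cryo-thermal plus anti-PD-1 it was 8, 6 and 8 (15.3%, 7.6% and 9.53% of all genes). With any other single tumour left out it was 10 to 17 (12.6% to 22.4%). It was 8 without the 3 skin-rich tumours and 6 without a filter on low values.

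**Figure D1:**
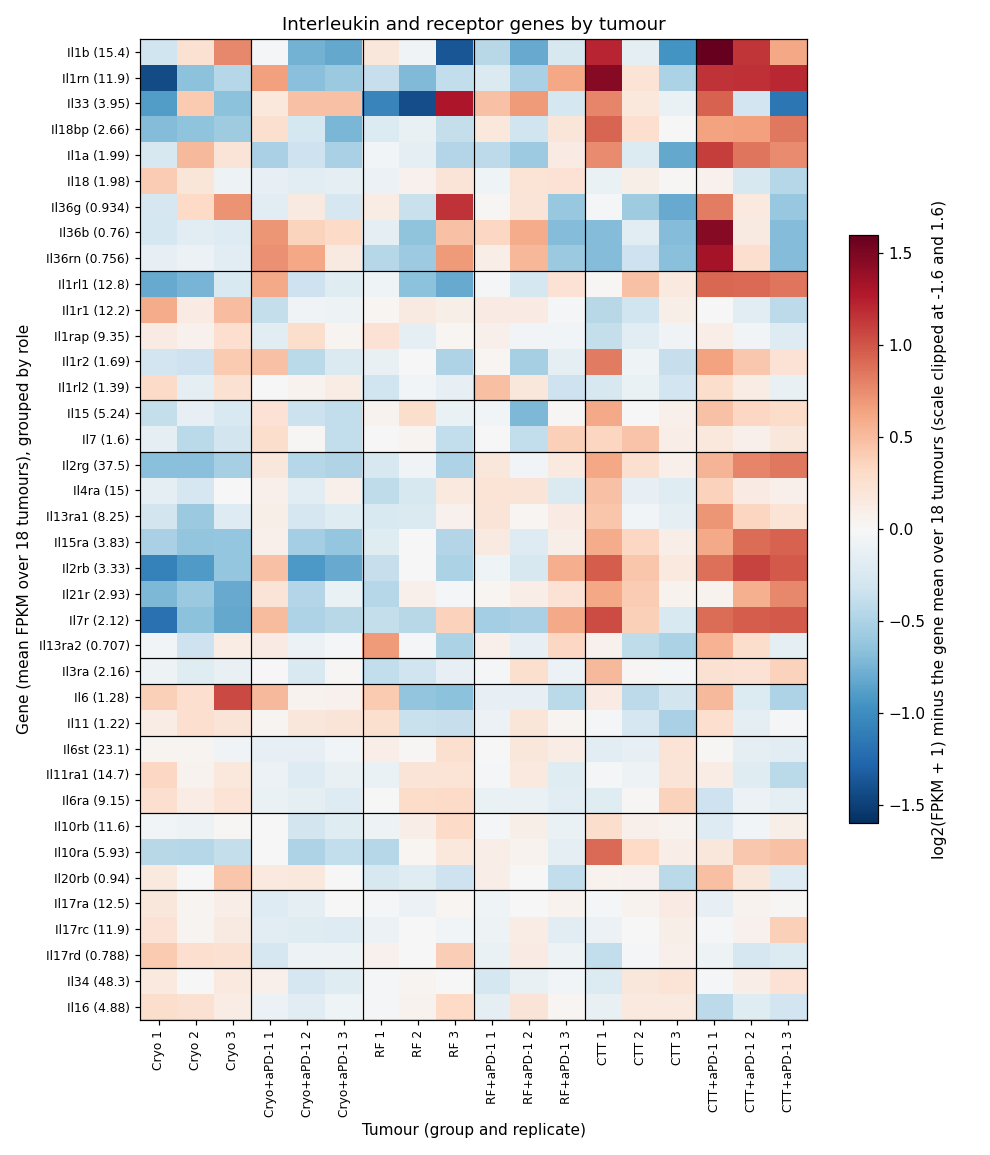
Level of the 38 genes (vertical axis, with mean FPKM, grouped by role) in each of the 18 tumours (horizontal axis), as log2(FPKM + 1) minus the gene's mean over the tumours. Red is above and blue below the gene's mean; Il2rg, Il2rb, Il15ra, Il21r and Il7r are blue in the 3 cryoablation tumours and mostly red in the cryo-thermal tumours, while Il6st, Il17ra and Il34 are pale throughout.

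Between groups, 12 genes passed limma's test in at least 1 of 10 comparisons. Cryo-thermal therapy against cryoablation, both without antibody, gave 9 genes that rose and 2 that fell (15.0% of all genes passed in this comparison, 8.01% upward and 6.96% downward). With anti-PD-1 in both groups the same contrast gave 5 genes that rose and 0 that fell (4.06% of all genes, 3.24% upward and 0.818% downward). Cryo-thermal against radiofrequency ablation gave 0 genes without antibody (0.00794% of all genes) and 1 that rose with it, Il15ra (1.31% of all genes, 0.818% upward). Adding anti-PD-1 to cryoablation gave 1 gene that fell, Il1r1 (4.31% of all genes, 2.53% downward). The remaining contrasts gave 0: radiofrequency against cryoablation without antibody (0.00794% of all genes) and with it (0.0%), anti-PD-1 added to radiofrequency ablation (0.0477%) or to cryo-thermal therapy (0.373%), and the difference between the anti-PD-1 effects of cryo-thermal therapy and cryoablation (0.167%). At an unadjusted p under 0.05 in limma, the comparisons with 0 calls held 10 genes (cryo-thermal against radiofrequency), 5 and 0 (radiofrequency against cryoablation without and with antibody), 3 and 7 (anti-PD-1 added to radiofrequency and to cryo-thermal therapy) and 4 (difference of effects). Comparisons share groups and are not independent of each other.

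The receptors of the common gamma chain family held the most calls of any group. Of the 8 receptor genes of IL-2, IL-4, IL-7, IL-13, IL-15 and IL-21 described, 5 rose after cryo-thermal therapy relative to cryoablation without antibody (8.01% of all genes did). With antibody 3 rose (3.24% of all genes). Their median log2 fold change was 0.93 without and 0.78 with antibody, against -0.01 and 0.01 for all genes. Il2rg (NCBI gene 16186), the shared gamma chain, measured 22.0, 21.9 and 24.3 FPKM in cryoablation replicates 1, 2 and 3, 29.5, 34.0 and 24.9 after radiofrequency ablation and 55.2, 42.5 and 37.4 after cryo-thermal therapy. With anti-PD-1 the levels were 40.3, 25.6 and 25.1 FPKM with cryoablation, 40.5, 34.3 and 39.8 with radiofrequency ablation and 52.1, 61.4 and 64.4 with cryo-thermal therapy. All 6 cryo-thermal tumours lay above all 3 cryoablation tumours, and cryoablation plus anti-PD-1 replicate 1 stood above the other two of its group. Il2rg rose in cryo-thermal therapy against cryoablation without antibody (log2 fold change 0.94, SE 0.17, adjusted p = 0.00555, limma, higher in 3 of 3 tumours than in any of the other group) and with it (log2 fold change 0.97, SE 0.17, adjusted p = 0.0144). The call without antibody held in 15 of 15 alternatives, and that with antibody was lost in 5, those without replicate 2 or 3 of either group and with these groups fitted alone.

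Il2rb (16185), the beta chain that IL-2 and IL-15 share, had the largest log2 fold change of FPKM + 1 of the 38 genes between cryo-thermal therapy and cryoablation without antibody. By the ratio of mean FPKM in that contrast, Il7r stood above it, at 5.57 against 4.19. Il2rb measured 0.813, 1.05 and 1.498 FPKM in the cryoablation tumours, 1.98, 2.83 and 1.70 after radiofrequency ablation and 6.56, 4.22 and 3.30 after cryo-thermal therapy. With anti-PD-1 it measured 4.32, 1.04 and 1.19 FPKM with cryoablation, 2.67, 2.22 and 4.73 with radiofrequency ablation and 6.07, 7.11 and 6.60 with cryo-thermal therapy. The cryoablation tumours did not overlap with the cryo-thermal tumours in either setting, and Il2rb rose by 1.40 on the log2 scale without antibody (SE 0.31, adjusted p = 0.0110, limma) and by 1.40 with it (SE 0.31, adjusted p = 0.0284). The first call was lost without cryoablation replicate 1 or cryo-thermal replicate 1, and the second in 6 of 15 alternatives, among them those without replicate 2 or 3 of either group (adjusted p up to 0.142). The 3 radiofrequency tumours without antibody lay between the other ablations, and neither difference from them passed.

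Il15ra (16169), which presents IL-15 to neighbouring lymphocytes and is also made by myeloid cells, was the gene with the most calls. Its levels were 2.17, 1.93 and 1.96 FPKM in the cryoablation tumours, 2.95, 3.53 and 2.28 after radiofrequency ablation and 5.83, 4.71 and 3.86 after cryo-thermal therapy. With anti-PD-1 they were 3.81, 2.11 and 1.96 FPKM with cryoablation, 4.01, 2.92 and 3.82 with radiofrequency ablation and 5.92, 7.39 and 7.69 with cryo-thermal therapy. The 3 tumours of cryo-thermal plus anti-PD-1 were the highest of the 18. Il15ra rose in cryo-thermal therapy against cryoablation without antibody (log2 fold change 0.93, SE 0.18, adjusted p = 0.00633, limma) and with it (log2 fold change 1.17, SE 0.18, adjusted p = 0.0101), and against radiofrequency ablation with antibody (log2 fold change 0.80, SE 0.18, adjusted p = 0.0457). The adjusted p of the first ran from 6.48e-05 to 0.0403 over 15 alternative analyses, that of the second from 9.88e-06 to 0.0705 and that of the third from 0.00106 to 0.187. The second was lost in 5 of them, those without replicate 2 or 3 of either group and with these groups fitted alone. The third was lost in 10, among these the ones without any 1 of the radiofrequency plus anti-PD-1 tumours or without cryo-thermal plus anti-PD-1 replicate 2 or 3. Its ligand Il15 measured 4.12 ± 0.437 FPKM in the cryoablation tumours and 6.27 ± 1.74 after cryo-thermal therapy (SD, n = 3 each), with a log2 fold change of 0.48 that did not pass (adjusted p = 0.122).

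Il21r (60504), the receptor of IL-21, a cytokine of helper T cells, measured 1.29, 1.48 and 1.15 FPKM in the cryoablation tumours, 1.74, 2.98 and 2.71 after radiofrequency ablation and 4.79, 3.96 and 2.91 after cryo-thermal therapy. With anti-PD-1 its levels were 3.31, 1.72 and 2.50 FPKM with cryoablation, 2.84, 3.03 and 3.41 with radiofrequency ablation and 2.91, 4.56 and 5.38 with cryo-thermal therapy, and there the cryoablation and cryo-thermal groups overlapped. It rose without antibody (log2 fold change 1.06, SE 0.20, adjusted p = 0.00598, limma) and had 0.59 with it (adjusted p = 0.111). In the 3 cryoablation tumours the gene was lower than in every one of the other 15.

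Il7r (16197), the IL-7 receptor chain that naive and memory T cells carry, measured 0.220, 0.765 and 0.583 FPKM in the cryoablation tumours, 1.14, 1.04 and 2.58 after radiofrequency ablation and 4.76, 2.62 and 1.35 after cryo-thermal therapy. In the antibody groups it measured 2.95, 0.973 and 1.05 FPKM with cryoablation, 0.910, 0.941 and 3.23 with radiofrequency ablation and 4.15, 4.45 and 4.51 with cryo-thermal therapy. The 3 tumours of cryo-thermal plus anti-PD-1 lay close together, while 1 tumour in each of the other groups with antibody lay near 3 FPKM and the rest near 1. Il7r rose in cryo-thermal therapy against cryoablation without antibody (log2 fold change 1.28, SE 0.36, adjusted p = 0.0288, limma) and had 1.09 with it (adjusted p = 0.1002). The call was lost in 6 of 15 alternatives, among them those without cryoablation replicate 1 or 3 or cryo-thermal replicate 1 or 2. Il7 (16196), its ligand, which stromal cells make, measured 1.29, 0.901 and 1.09 FPKM in the cryoablation tumours, 1.55, 1.64 and 0.947 after radiofrequency ablation and 2.23, 2.50 and 1.75 after cryo-thermal therapy. Its levels with anti-PD-1 were 2.11, 1.58 and 0.940 FPKM with cryoablation, 1.56, 0.940 and 2.31 with radiofrequency ablation and 1.87, 1.70 and 1.89 with cryo-thermal therapy. Il7 rose without antibody (log2 fold change 0.59, SE 0.19, adjusted p = 0.0478, limma), a call that was lost without any 1 of cryoablation replicates 1, 2 and 3 or cryo-thermal replicates 1 and 2 and in 5 other alternatives.

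Of the receptor chains of IL-4 and IL-13, Il4ra and Il13ra1 had a highest value 1.92 and 2.76 times the lowest, and Il13ra2 9.80 times. Il4ra (16190), which both cytokines use, measured 13.2, 12.1 and 14.8 FPKM in the cryoablation tumours, 10.9, 12.2 and 16.6 after radiofrequency ablation and 20.9, 13.4 and 12.9 after cryo-thermal therapy. The matching antibody groups had 15.7, 13.1 and 15.6 FPKM with cryoablation, 17.4, 17.2 and 12.5 with radiofrequency ablation and 19.4, 16.3 and 15.7 with cryo-thermal therapy, and the 3 cryo-thermal tumours with antibody lay just above the cryoablation tumours with antibody. No difference passed for Il4ra (F test adjusted p = 0.495, limma). Il13ra1 (16164), its partner in the receptor of IL-13, varied over the groups (F test adjusted p = 0.0306). It measured 6.35, 4.97 and 6.82 FPKM with cryoablation, 6.66, 6.73 and 8.48 with radiofrequency ablation and 11.3, 7.79 and 7.17 with cryo-thermal therapy. With anti-PD-1 it measured 8.62, 6.48 and 6.88 FPKM with cryoablation, 9.41, 8.27 and 8.88 with radiofrequency ablation and 13.7, 10.48 and 9.54 with cryo-thermal therapy. Both cryo-thermal groups lay above the matching cryoablation group without overlap (17.7% of all genes did without antibody and 15.5% with it). Neither difference passed (log2 fold change 0.46, adjusted p = 0.0688, and 0.55, adjusted p = 0.0692, limma). Il13ra2, a decoy receptor, ran from 0.171 to 1.67 FPKM with no call.

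**Figure D2:**
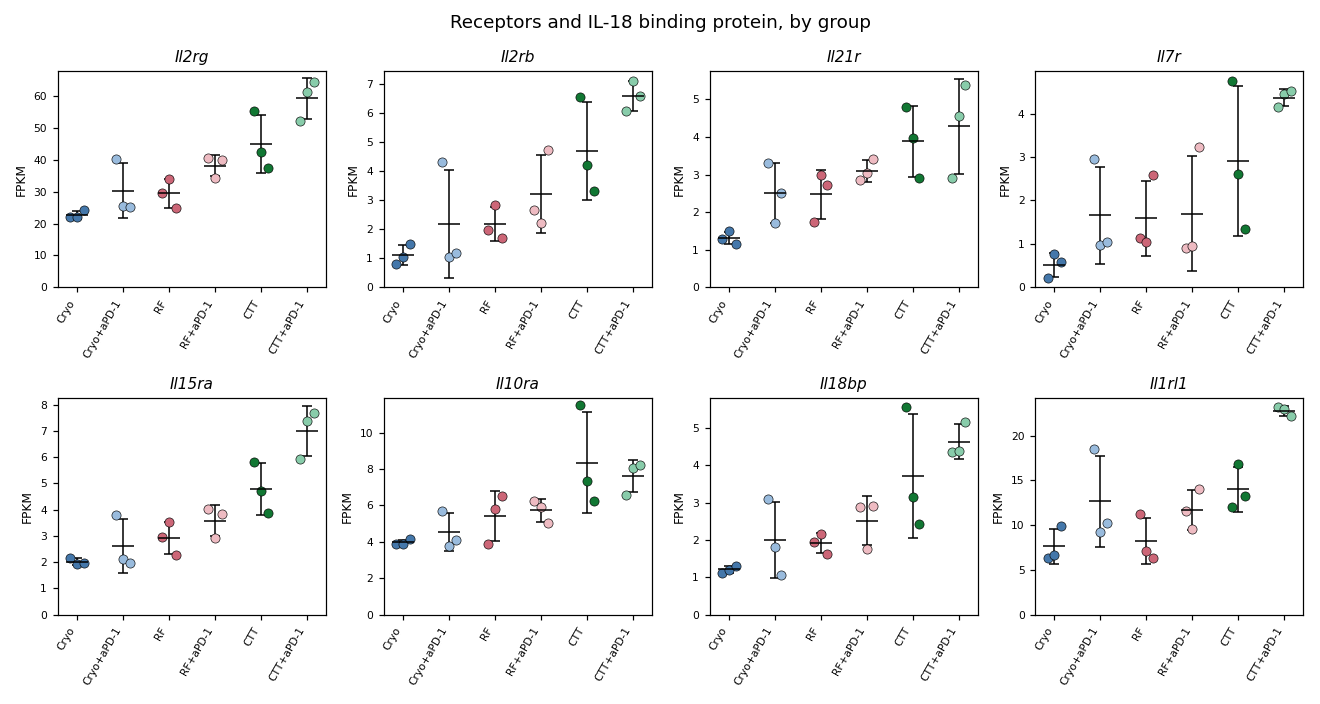
FPKM (vertical axis, from 0) of 8 genes in the 6 groups (horizontal axis); points are tumours, horizontal dashes the mean and bars the SD of 3. The cryoablation mean is the lowest of the 6 for each gene, and the mean of cryo-thermal plus anti-PD-1 treatment is the highest for each but Il10ra.

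T cell genes moved with these receptors, and no gene of that list was below 0.1 FPKM in every tumour. The summed level of 10 T cell genes was 2.61 to 3.59 FPKM in the cryoablation tumours, 5.92 to 13.2 after radiofrequency ablation and 13.7 to 42.7 after cryo-thermal therapy, and 6.05 to 25.3, 9.31 to 18.4 and 40.4 to 44.0 FPKM in the matching antibody groups. All 9 T cell genes past the filter rose in cryo-thermal therapy against cryoablation (8.01% of all genes did), and 6 did so with antibody (3.24%). The calls with antibody, of genes and lists alike, come from a contrast whose calls over the whole table went from 511 to 2 and 2 without replicate 2 or 3 of cryoablation plus anti-PD-1, to 3 and 17 without replicate 2 or 3 of cryo-thermal plus anti-PD-1, and to 0 with these groups fitted alone. Summed NK cell genes were 2.22 to 3.03 FPKM in the cryoablation tumours and 3.97 to 9.40 after cryo-thermal therapy, where 2 of 4 rose (8.01% of all genes did). Summed macrophage and monocyte genes were 328 to 399 and 472 to 814 FPKM, with 4 of 9 higher and 1 lower past the test (8.01% and 6.96% of all genes). The cryoablation plus anti-PD-1 tumour with the highest T cell sum, replicate 1 at 25.3 FPKM, was also the highest of its group for Il2rg, Il2rb, Il15ra, Il21r and Il7r. Radiofrequency replicate 2 had the highest sum of its group, 13.2 FPKM, and the highest Il2rg, Il2rb, Il15ra and Il21r, but the lowest Il7r. With radiofrequency plus anti-PD-1 the sum, Il2rb, Il21r and Il7r were highest in replicate 3 and Il2rg and Il15ra in replicate 1. The part of these cell types in the receptor results was not tested, and in bulk tumour RNA fewer cells of a type and less RNA per cell cannot be told apart.

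RefSeq promoters on the mouse build GRCm38.p6 were found for 31 of the 38 genes. They are shown for 4 of the genes that rose in cryo-thermal therapy against cryoablation without antibody. Each is given as the 250 bases before the transcription start on the gene's strand. A gamma-activated site (the letters TTCNNNGAA, bound by STAT factors) is in capitals where it occurs. Il2rg lies at chrX:101268256-101268505 on the minus strand, Il15ra at chr2:11705043-11705292 on the plus strand (the more upstream of its listed starts), Il18bp at chr7:102018233-102018482 on the minus strand and Il7r at chr15:9529877-9530126 on the minus strand.
Il2rg: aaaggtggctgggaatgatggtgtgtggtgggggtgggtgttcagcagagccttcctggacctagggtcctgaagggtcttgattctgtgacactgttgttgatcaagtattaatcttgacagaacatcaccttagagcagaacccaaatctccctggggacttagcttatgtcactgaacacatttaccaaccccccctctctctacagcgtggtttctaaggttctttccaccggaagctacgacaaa
Il15ra: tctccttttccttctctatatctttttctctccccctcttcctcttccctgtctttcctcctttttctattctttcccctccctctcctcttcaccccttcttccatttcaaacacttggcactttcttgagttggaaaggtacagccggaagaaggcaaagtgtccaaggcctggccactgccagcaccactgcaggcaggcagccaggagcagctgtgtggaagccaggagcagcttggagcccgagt
Il18bp: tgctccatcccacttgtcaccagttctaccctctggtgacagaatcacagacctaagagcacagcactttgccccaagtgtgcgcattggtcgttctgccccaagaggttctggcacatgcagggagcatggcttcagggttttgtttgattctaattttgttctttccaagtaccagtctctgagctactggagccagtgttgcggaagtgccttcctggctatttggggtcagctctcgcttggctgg
Il7r: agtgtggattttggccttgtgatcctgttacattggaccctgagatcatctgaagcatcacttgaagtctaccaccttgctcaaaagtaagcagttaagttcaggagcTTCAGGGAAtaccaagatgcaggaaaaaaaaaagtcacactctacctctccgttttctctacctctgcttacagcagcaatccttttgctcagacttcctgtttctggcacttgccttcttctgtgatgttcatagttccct
Both strands of the windows from 250 bases before to 50 after the start were searched for that site and for the interferon-stimulated response element, and no gene of the 31 held both. The first was present in 4 of the 31 genes (Il7r, Il1r2, Il36g and Il36rn) against 9.55% of 27025 genes, and the second in 1, Il1rap, against 3.99%. Of the 4 genes shown, Il7r alone held a match in its window. Il21r and Il1rl1, which also rose without antibody, are not shown and held no match. In GENCODE the exons of Il2rg share up to 185 bases with another gene model, Gm20489, on the same strand. The authors' genome build was not given in the sources used here, so these coordinates are those of the RefSeq table.

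Agonists and inhibitors of the IL-1 family differed widely between tumours of the same group. Il1b (16176), the main inflammatory IL-1 of myeloid cells, measured 10.1, 15.5 and 22.6 FPKM in the cryoablation tumours, 14.7, 12.4 and 4.35 after radiofrequency ablation and 31.2, 11.4 and 6.12 after cryo-thermal therapy. With anti-PD-1 it measured 12.7, 7.18 and 6.87 FPKM with cryoablation, 9.21, 6.92 and 10.6 with radiofrequency ablation and 46.2, 29.7 and 20.2 with cryo-thermal therapy. All 3 tumours of cryo-thermal plus anti-PD-1 were above all 6 of the other antibody groups, yet no comparison passed (cryo-thermal against cryoablation with antibody: log2 fold change 1.71, SE 0.50, adjusted p = 0.0675, limma; F test adjusted p = 0.0982). Il1bos, a gene on the opposite strand that shares exon bases with Il1b, had at most 0.130 FPKM in any tumour.

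Il1a (16175), which damaged epithelial and myeloid cells release, measured 1.31, 2.94 and 2.19 FPKM in the cryoablation tumours, 1.67, 1.49 and 0.994 after radiofrequency ablation and 3.66, 1.38 and 0.571 after cryo-thermal therapy. The antibody groups had 0.924, 1.19 and 0.933 FPKM with cryoablation, 1.07, 0.848 and 2.02 with radiofrequency ablation and 4.94, 4.02 and 3.69 with cryo-thermal therapy. It rose in cryo-thermal therapy against cryoablation with antibody (log2 fold change 1.37, SE 0.30, adjusted p = 0.0270, limma) and had -0.25 without it (adjusted p = 0.613). The call was lost in 8 of 15 alternatives. Among them were those without cryoablation plus anti-PD-1 replicate 2 or 3 and without any 1 of the cryo-thermal plus anti-PD-1 tumours. Another was the fit without the skin-rich tumours, which keeps only replicate 3 of cryoablation plus anti-PD-1. The difference between the anti-PD-1 effects of these ablations was 1.61 on the log2 scale (SE 0.43, adjusted p = 0.123) and did not pass.

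Il1rn (16181), the receptor antagonist that blocks IL-1, varied over the groups (F test adjusted p = 0.0379). Its levels were 3.07, 5.98 and 7.00 FPKM in the cryoablation tumours, 7.48, 5.69 and 7.37 after radiofrequency ablation and 29.0, 11.8 and 6.72 after cryo-thermal therapy. With anti-PD-1 they were 16.3, 5.91 and 6.27 FPKM with cryoablation, 8.36, 6.67 and 15.9 with radiofrequency ablation and 23.3, 23.7 and 24.3 with cryo-thermal therapy. The 3 tumours of cryo-thermal plus anti-PD-1 lay within 1 FPKM of each other, above all others but cryo-thermal replicate 1. Its difference between cryo-thermal therapy and cryoablation was 1.24 without antibody (SE 0.44, adjusted p = 0.0696) and 1.38 with it (SE 0.44, adjusted p = 0.0905), and neither passed limma's test. Neutrophil genes, whose cells make IL-1 and its antagonist, had summed levels of 135 to 298 FPKM in the cryoablation tumours and 15.3 to 53.1 after cryo-thermal therapy. They summed to 109 to 333 FPKM after radiofrequency ablation, 35.6 to 95.1 after cryoablation plus anti-PD-1 and 23.9 to 66.1 after radiofrequency plus anti-PD-1. After cryo-thermal plus anti-PD-1 the sums were 36.9 to 395 FPKM, highest in replicate 1, where Il1b was highest too. Radiofrequency replicate 3 had a sum of 333 FPKM and the lowest Il1b of the 18 tumours, 4.35 FPKM. Cryo-thermal replicate 1 had a sum of 53.1 FPKM and 31.2 FPKM of Il1b. Of 5 neutrophil genes 4 fell in cryo-thermal therapy against cryoablation without antibody (6.96% of all genes did) and 0 passed with it (4.06%). Their part in the levels of Il1a, Il1b and Il1rn was not tested.

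**Figure D3:**
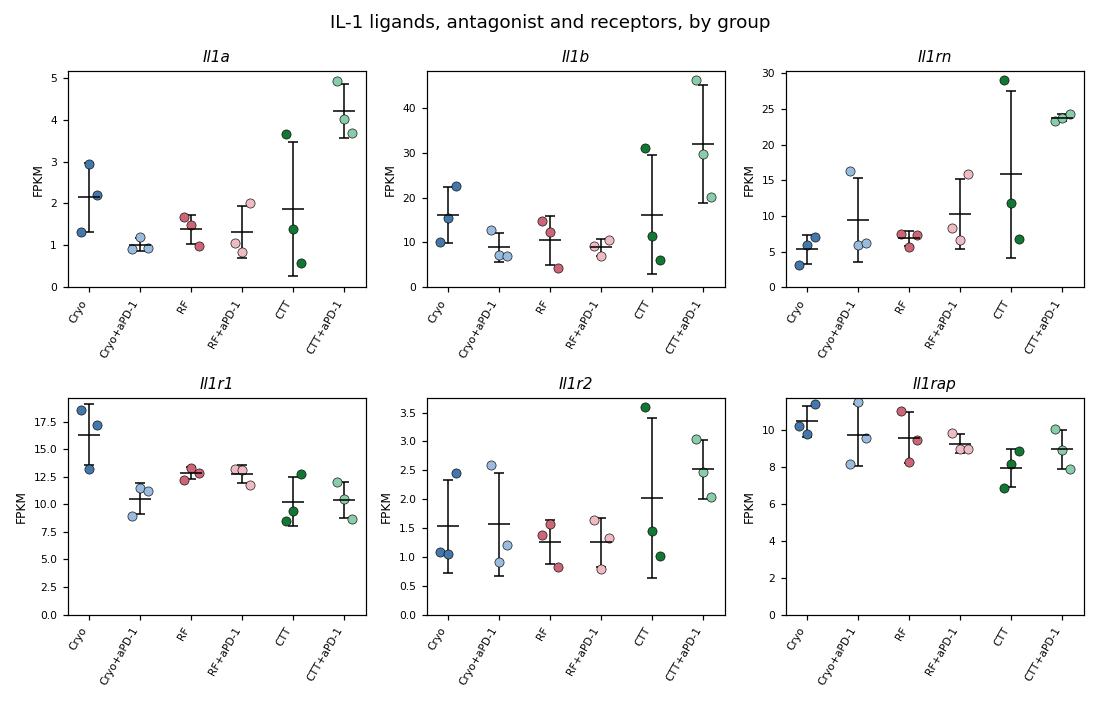
FPKM (vertical axis, from 0) of IL-1 ligands (Il1a, Il1b), the antagonist Il1rn and 3 receptor genes in the 6 groups (horizontal axis); points are tumours, dashes the mean and bars the SD of 3. The mean of Il1r1 is highest after cryoablation, while the means of Il1a, Il1b and Il1rn are highest after cryo-thermal plus anti-PD-1 treatment.

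Il18bp (16068), the secreted protein that neutralises IL-18 and is a known interferon target, measured 1.12, 1.20 and 1.31 FPKM in the cryoablation tumours, 1.94, 2.16 and 1.63 after radiofrequency ablation and 5.57, 3.15 and 2.42 after cryo-thermal therapy. Its levels with anti-PD-1 were 3.10, 1.81 and 1.07 FPKM with cryoablation, 2.87, 1.76 and 2.92 with radiofrequency ablation and 4.35, 4.39 and 5.17 with cryo-thermal therapy. Il18bp rose in cryo-thermal therapy against cryoablation without antibody (log2 fold change 1.04, SE 0.23, adjusted p = 0.0115, limma) and with it (log2 fold change 0.97, SE 0.23, adjusted p = 0.0358), and neither pair of groups overlapped. The first call was lost without cryoablation replicate 1 or cryo-thermal replicate 1, and the second in 7 of 15 alternatives, among them those without replicate 2 or 3 of either group and with the level of skin genes as a covariate (adjusted p up to 0.166). In GENCODE its exons share up to 80 bases with Numa1 on the opposite strand, which averaged 24.4 FPKM, and the strand setting of the counting was not given in the sources used here. IL-18 itself, Il18, ran from 1.15 to 2.92 FPKM over the 18 tumours with no call.

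The alarmin Il33, which barrier and stromal cells release on damage, spread from 0.628 to 9.70 FPKM, with both extremes after radiofrequency ablation, in replicates 2 and 3. The IL-36 genes, which keratinocytes are known to make, were compared with the level of skin genes, a comparison chosen after their values were seen. Il36rn, the IL-36 receptor antagonist, was 3.05 FPKM in cryo-thermal plus anti-PD-1 replicate 1, and 1.67 and 1.48 FPKM in replicates 1 and 2 of cryoablation plus anti-PD-1, the 3 skin-rich tumours, and 1.58 FPKM in radiofrequency replicate 3. In the 5 tumours with the lowest level of hair follicle and keratinocyte genes it was at most 0.0813 FPKM, and in the other 13 at least 0.173. Il36b showed the same split, at most 0.0335 FPKM in those 5 and 0.330 to 3.42 in the rest. Il36g did not, with its highest value, 3.03 FPKM, in radiofrequency replicate 3, where the skin genes had a level of 1.502. The F test over the groups was not passed by any of the 3 (adjusted p = 0.364 for Il36rn, 0.427 for Il36b and 0.529 for Il36g, limma).

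**Figure D4:**
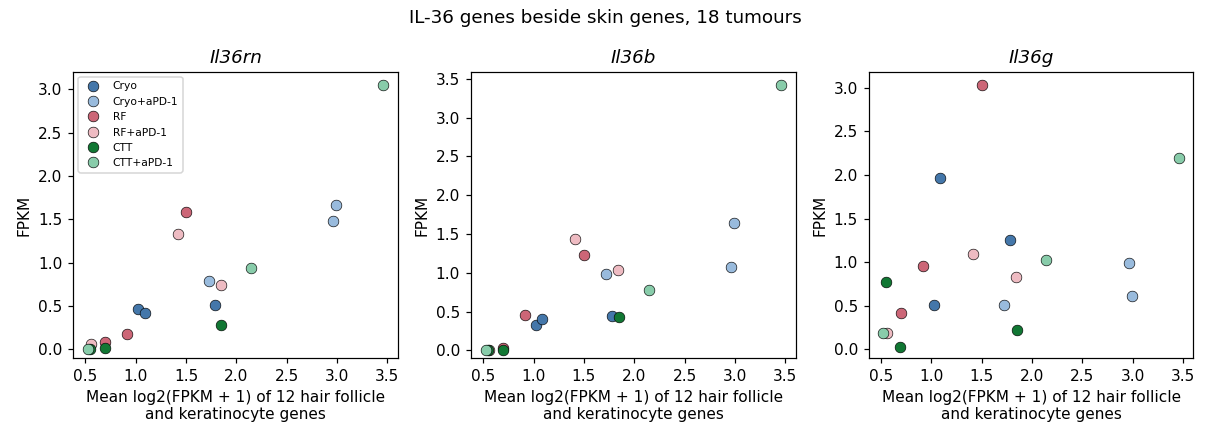
FPKM (vertical axis) of Il36rn, Il36b and Il36g against the mean log2(FPKM + 1) of 12 hair follicle and keratinocyte genes (horizontal axis) in the 18 tumours, coloured by group. Il36rn and Il36b are at most 0.0813 and 0.0335 FPKM in the 5 tumours at the left and highest in the tumour at the far right.

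Among the receptors of the IL-1 family, Il1rl1 and Il1r1 moved in opposite directions in cryo-thermal therapy against cryoablation without antibody. Il1rl1 (17082), the IL-33 receptor ST2, known from regulatory T cells, mast cells and type 2 lymphocytes and also secreted as a decoy, measured 6.34, 6.67 and 9.86 FPKM in the cryoablation tumours, 11.2, 7.15 and 6.34 after radiofrequency ablation and 12.0, 16.8 and 13.2 after cryo-thermal therapy. With anti-PD-1 it measured 18.5, 9.18 and 10.2 FPKM with cryoablation, 11.6, 9.54 and 14.0 with radiofrequency ablation and 23.2, 23.0 and 22.2 with cryo-thermal therapy. The tumours of cryo-thermal plus anti-PD-1 were the 3 highest of the 18, within about 1 FPKM of each other. Il1rl1 rose in cryo-thermal therapy against cryoablation without antibody (log2 fold change 0.81, SE 0.24, adjusted p = 0.0345, limma), a call lost without cryoablation replicate 1 or 2 or cryo-thermal replicate 1 or 2, and had 0.86 with antibody (SE 0.24, adjusted p = 0.0542). Summed mast cell and basophil genes were 2.20 to 5.32 FPKM in the cryoablation tumours, 4.71 to 11.9 after cryo-thermal therapy, 7.50 to 19.6 after cryoablation plus anti-PD-1 and 2.56 to 16.7 after cryo-thermal plus anti-PD-1. Of these genes 0 of 5 passed in either contrast (15.0% and 4.06% of all genes did), while T cell genes, given above, rose in both. The part of these cell types in the level of Il1rl1 was not tested.

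Il1r1 (16177), the signalling receptor of IL-1, which fibroblasts and endothelium carry, measured 18.5, 13.2 and 17.2 FPKM in the cryoablation tumours, 12.2, 13.3 and 12.8 after radiofrequency ablation and 8.52, 9.40 and 12.8 after cryo-thermal therapy. The antibody groups had 8.90, 11.5 and 11.2 FPKM with cryoablation, 13.2, 13.2 and 11.8 with radiofrequency ablation and 12.0, 10.49 and 8.71 with cryo-thermal therapy. It fell in cryo-thermal therapy against cryoablation (log2 fold change -0.63, SE 0.15, adjusted p = 0.0123, limma) and when anti-PD-1 was added to cryoablation (log2 fold change -0.58, SE 0.15, adjusted p = 0.0380). These contrasts share the 3 cryoablation tumours. Without cryoablation replicate 1 the first had an adjusted p above 0.05, as it had without cryo-thermal replicate 1 or 2. The second lost its call without cryoablation replicate 1 or 3 or without any 1 of the tumours with antibody, leaving 0 of the 38 genes in each case. It was lost too with no filter on low values, the replicate block, the skin covariate and these 2 groups fitted alone. It was also lost without the 2 skin-rich tumours of that group, a fit that keeps only its replicate 3. With antibody in both groups, Il1r1 had a log2 fold change of -0.02 in cryo-thermal therapy against cryoablation (adjusted p = 0.966, limma). Fibroblast genes summed to 1521 to 1937 FPKM in the cryoablation tumours, 882 to 1672 after cryo-thermal therapy and 959 to 1234 after cryoablation plus anti-PD-1. In the first contrast 1 of 7 was lower past the test (6.96% of all genes were). Endothelial genes summed to 23.9 to 38.4, 34.2 to 54.6 and 35.8 to 42.2 FPKM in these groups, with 0 of 6 past the test in the first contrast (15.0% of all genes). The part of these cell types in the level of Il1r1 was not tested. The accessory chain Il1rap ran from 6.86 to 11.5 FPKM, the decoy Il1r2 from 0.789 to 3.61 and the IL-36 receptor Il1rl2 from 0.880 to 2.30 FPKM, with no call in any contrast.

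Receptors of the gp130 family had no call between groups. Il6st (16195), the shared chain gp130, measured 23.8, 23.8 and 22.0 FPKM in the cryoablation tumours, 24.8, 23.2 and 27.8 after radiofrequency ablation and 20.2, 20.8 and 26.9 after cryo-thermal therapy. The values with anti-PD-1 were 20.9, 20.9 and 22.3 FPKM with cryoablation, 22.9, 26.2 and 25.0 with radiofrequency ablation and 23.3, 20.6 and 20.1 with cryo-thermal therapy, and the highest of the 18 was 1.38 times the lowest. Il11ra1 (16157), the IL-11 receptor, had 18.7, 15.3 and 16.6 FPKM with cryoablation, 13.5, 16.9 and 17.2 with radiofrequency ablation and 14.5, 13.8 and 17.0 with cryo-thermal therapy, all without antibody. With anti-PD-1 it had 13.6, 12.5 and 13.4 FPKM with cryoablation, 14.2, 16.5 and 12.6 with radiofrequency ablation and 16.0, 12.6 and 10.6 with cryo-thermal therapy, with no call. Its paralog Il11ra2 was at 0 in 14 tumours and at most 0.0236 FPKM in the rest; how reads were split between such near-identical copies is not known, so both values are uncertain.

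Il6ra (16194), the IL-6 receptor, varied over the groups (F test adjusted p = 0.0479) without a call between any 2 of them. It measured 11.1, 9.88 and 10.7 FPKM in the cryoablation tumours, 9.05, 11.3 and 11.4 after radiofrequency ablation and 7.79, 9.20 and 12.0 after cryo-thermal therapy. With anti-PD-1 it measured 8.32, 8.04 and 7.68 FPKM with cryoablation, 8.33, 8.34 and 7.97 with radiofrequency ablation and 7.02, 8.41 and 8.08 with cryo-thermal therapy. Of the 9 tumours without antibody 8 were above 8.41 FPKM, the highest value with it, a limit taken after the values were seen. A pooled contrast of tumours with and without antibody was not tested. Anti-PD-1 added to cryoablation, radiofrequency or cryo-thermal therapy did not pass (adjusted p = 0.0842, 0.302 and 0.372, limma). The ligand Il6, an inflammatory cytokine of stromal and myeloid cells, ran from 0.367 to 3.52 FPKM, with a log2 fold change of -0.77 in cryo-thermal therapy against cryoablation (adjusted p = 0.101), and Il11 from 0.532 to 1.64 FPKM with -0.47 (adjusted p = 0.0614). Neither passed, although the cryo-thermal tumours were all lower than the cryoablation tumours for both genes, as they were for 17.8% of all genes.

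Of the IL-10 and IL-17 receptor chains, Il10ra was the one to rise. Il10ra (16154), the IL-10 receptor chain of leukocytes, measured 3.90, 3.87 and 4.14 FPKM in the cryoablation tumours, 3.86, 5.81 and 6.498 after radiofrequency ablation and 11.5, 7.35 and 6.21 after cryo-thermal therapy. With antibody its levels were 5.70, 3.76 and 4.07 FPKM with cryoablation, 6.21, 5.93 and 5.03 with radiofrequency ablation and 6.59, 8.02 and 8.23 with cryo-thermal therapy. It rose in cryo-thermal therapy against cryoablation without antibody (log2 fold change 0.87, SE 0.19, adjusted p = 0.00999, limma; without cryo-thermal replicate 1 the adjusted p was 0.0528) and had 0.66 with it (adjusted p = 0.0659). Its partner Il10rb, which most cells carry, ran from 9.21 to 14.6 FPKM, and Il20rb, a receptor chain of IL-20 and IL-24 known from skin, from 0.413 to 1.68. Neither had a call. The highest Il20rb was in the tumour richest in skin genes, and the next, 1.59 FPKM, in cryoablation replicate 3 at a skin level of 1.09. The 5 tumours lowest in skin genes had 0.413 to 0.982 FPKM of Il20rb and the other 13 had 0.517 to 1.68.

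Il17ra (16172), the shared chain of the IL-17 family, was the most even of the 38 genes, with 14.2, 12.9 and 13.5 FPKM with cryoablation, 12.2, 11.6 and 12.7 with radiofrequency ablation and 12.3, 12.9 and 13.7 with cryo-thermal therapy, all without antibody. With anti-PD-1 it had 10.7, 11.0 and 12.5 FPKM with cryoablation, 11.8, 12.5 and 13.0 with radiofrequency ablation and 11.3, 12.9 and 12.6 with cryo-thermal therapy. Its highest value was 1.33 times its lowest. Il17rc, its partner for IL-17A and IL-17F, ran from 10.1 to 15.7 FPKM with no call. Il17rd (171463), an inhibitor of growth factor signalling, measured 1.35, 1.13 and 1.10 FPKM in the cryoablation tumours, 0.852, 0.755 and 1.31 after radiofrequency ablation and 0.345, 0.738 and 0.871 after cryo-thermal therapy. With antibody it had 0.471, 0.675 and 0.678 FPKM with cryoablation, 0.639, 0.943 and 0.674 with radiofrequency ablation and 0.672, 0.463 and 0.520 with cryo-thermal therapy. It fell in cryo-thermal therapy against cryoablation (log2 fold change -0.42, SE 0.13, adjusted p = 0.0429, limma), and lost that call in 11 of 14 alternatives, among them those without any 1 of cryoablation replicates 1, 2 and 3 or cryo-thermal replicates 1 and 2 and without the skin-rich tumours.

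Of the interleukins outside these families, Il34 (76527), a ligand of the macrophage receptor CSF1R, had the highest mean of the 38 genes. It measured 53.7, 47.7 and 53.8 FPKM in the cryoablation tumours, 47.5, 49.6 and 47.7 after radiofrequency ablation and 41.01, 54.3 and 56.2 after cryo-thermal therapy. In the antibody groups it measured 50.7, 39.7 and 42.0 FPKM with cryoablation, 39.3, 44.1 and 46.6 with radiofrequency ablation and 46.8, 51.6 and 56.5 with cryo-thermal therapy, and no difference passed (F test adjusted p = 0.295, limma). Il16 (16170), a chemoattractant of CD4-bearing cells, varied over the groups (F test adjusted p = 0.0286). Its levels were 6.06, 5.91 and 5.32 FPKM with cryoablation, 4.70, 5.07 and 6.24 with radiofrequency ablation and 4.36, 5.48 and 5.50 with cryo-thermal therapy. With anti-PD-1 they were 4.44, 4.15 and 4.55 FPKM with cryoablation, 4.25, 5.69 and 4.93 with radiofrequency ablation and 3.37, 4.08 and 3.69 with cryo-thermal therapy. The cryo-thermal plus anti-PD-1 tumours were the 3 lowest of the 18, at a log2 fold change of -0.37 from cryo-thermal therapy alone (SE 0.11, adjusted p = 0.149, limma), which did not pass. In GENCODE the exons of Il16 share up to 1084 bases with Stard5 on the opposite strand. Il3ra, the IL-3 receptor chain of myeloid cells, ran from 1.36 to 3.46 FPKM (F test adjusted p = 0.0517).

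The contrast of cryo-thermal therapy with cryoablation was set side by side without and with antibody. Without it, Il2rg, Il2rb, Il21r, Il7r, Il15ra, Il10ra, Il18bp, Il1rl1 and Il7 rose and Il1r1 and Il17rd fell, 11 of 38 genes. The cryo-thermal tumours lay wholly above the cryoablation tumours for 13 genes (17.7% of all genes did) and wholly below for 6 (17.8%). The count of calls was 4 when cryoablation replicate 1 was left out, 3 and 6 when cryo-thermal replicate 1 or 2 was, and 11 without the skin-rich tumours. Of all genes 4.27% passed without cryoablation replicate 1, and 3.65% and 5.55% without cryo-thermal replicate 1 or 2, against 15.0% in the main fit. Cryo-thermal replicate 1 had the highest level of the 3 for 7 of the 9 genes that rose, and the highest T cell sum, 42.7 FPKM.

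With antibody in both groups, Il15ra, Il2rg, Il1a, Il2rb and Il18bp rose, and 4 of these 5 had also risen without it. The cryo-thermal tumours lay wholly above the others for 15 genes (15.5% of all genes did) and wholly below for 1 (10.4%). The count of calls was 0 without replicate 2 or 3 of either group and with these 2 groups fitted alone. It was 13 without cryoablation plus anti-PD-1 replicate 1 (8.36% of all genes, against 4.06% in the main fit). No count is given without the skin-rich tumours, since only replicate 3 of cryoablation plus anti-PD-1 is then left. For none of the 38 genes did the anti-PD-1 effect differ between cryo-thermal therapy and cryoablation past the test. The widest such difference was that of Il1b, 1.91 on the log2 scale (SE 0.71, adjusted p = 0.246).

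**Figure D5:**
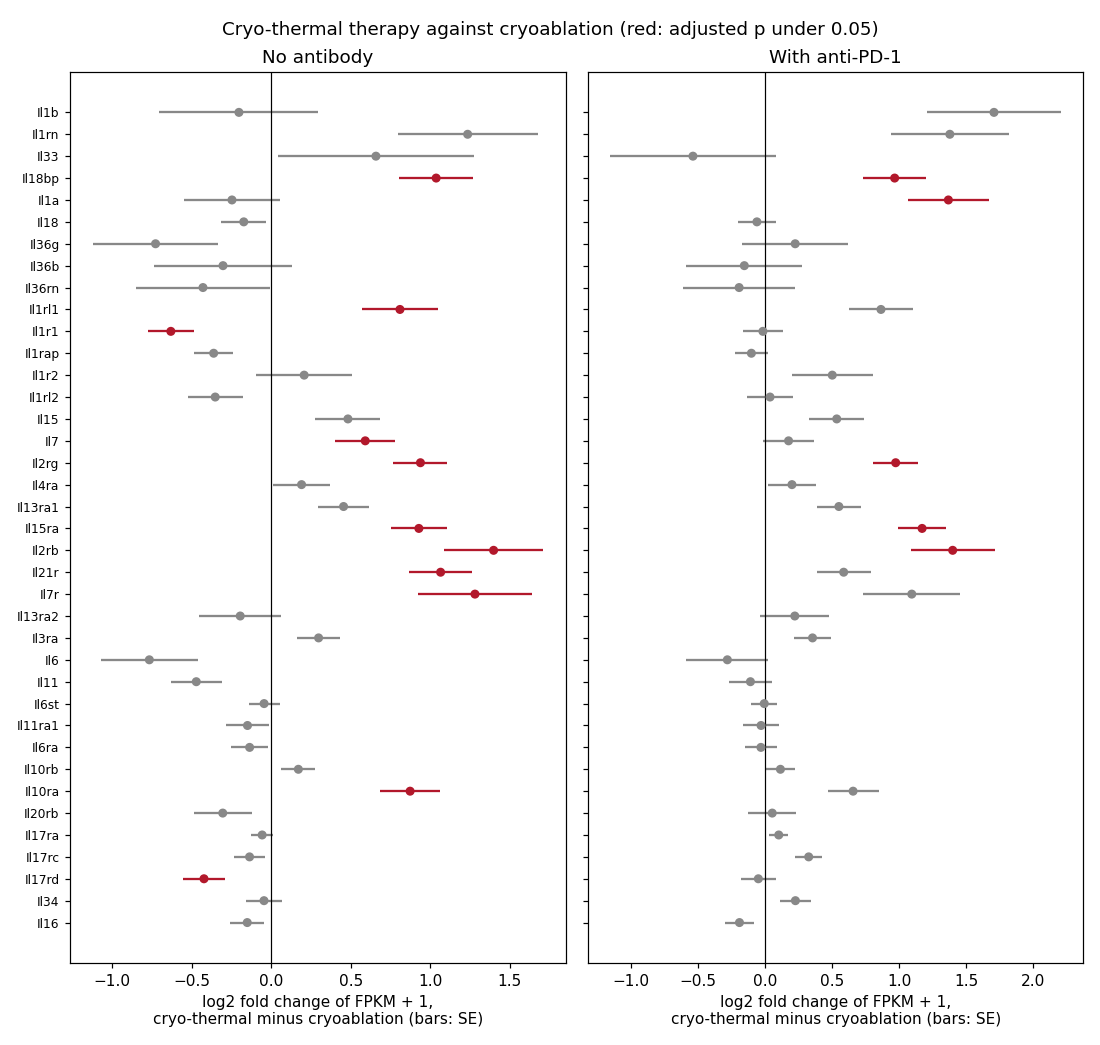
Log2 fold change of FPKM + 1 (horizontal axis) of the 38 genes (vertical axis), cryo-thermal therapy minus cryoablation, without antibody on the left and with anti-PD-1 in both groups on the right; bars are limma's SE and red marks an adjusted p under 0.05. There are 11 red genes on the left and 5 on the right, with Il2rg, Il2rb, Il15ra and Il18bp in both.

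Against radiofrequency ablation the cryo-thermal tumours had no call without antibody. There Il2rg had a log2 fold change of 0.59 (SE 0.17), Il15ra of 0.56, Il2rb of 0.82 and Il1rl1 of 0.73, with limma adjusted p of 0.262 to 0.299. The groups did not overlap for these 4 genes, which were among 7 of the 38 wholly higher (8.08% of all genes) and 0 wholly lower (7.59%). With antibody Il2rg had 0.62 (adjusted p = 0.0840), Il1a 1.20 (adjusted p = 0.0637) and Il1rl1 0.92 (adjusted p = 0.0686). With anti-PD-1 added to cryo-thermal therapy, Il1a had 1.00, Il1rl1 0.68 and Il1b 1.14 on the log2 scale, none past the test (adjusted p = 0.162, 0.231 and 0.351).

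Partner chains, related ligands and signalling genes that do not carry an Il symbol were read from lists of 44 genes, of which 41 passed the filter on low values. In cryo-thermal therapy against cryoablation 10 of 41 rose and 0 fell without antibody (8.01% of all genes rose), with a median log2 fold change of 0.17 against -0.01 for all genes, and 14 rose and 0 fell with it (3.24%), with a median of 0.34 against 0.01. The calls with antibody have the limit given beside the T cell genes: few or none in the whole table without replicate 2 or 3 of either group or with the groups fitted alone. Of 7 receptor partners 3 and 5 rose, among them Csf2rb, the beta chain of the IL-3 and IL-5 receptors, by 0.51 (adjusted p = 0.0403) and 0.73 (adjusted p = 0.0241), and Sigirr, an inhibitor of IL-1 family receptors, by 0.28 and 0.40. Of 8 related ligands 1 rose in each setting, Ebi3, the partner of Il27, by 0.85 without antibody and Lif, a gp130 cytokine, by 0.54 with it.

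Of 10 JAK kinases and STAT factors 2 rose in each setting. These counts, and those of the next lists, have the same shares of all genes beside them, 8.01% without and 3.24% with antibody, and the same limit with antibody. Stat4, which relays IL-12, rose by 0.60 without antibody (limma adjusted p = 0.0325), and Stat3, which relays IL-6, IL-10 and IL-21, rose by 0.60 with it (adjusted p = 0.0158). Of 12 genes of IL-1 and IL-17 receptor signalling 3 rose in each setting, including Myd88, the adaptor of IL-1 receptors, by 0.30 and 0.34, and Casp1, which cleaves IL-1 beta and IL-18 precursors, by 1.21 without antibody. Of 4 feedback inhibitors 1 and 3 rose, with Socs1, an inhibitor of JAK kinases, at 0.86 and 1.28 and Cish, induced by STAT5, at 0.63 with antibody.

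The remaining 37 of the 75 genes averaged under 0.5 FPKM and were not tested. They held all 5 IL-10 family ligands, all 6 IL-17 family ligands, all 4 genes of the IL-12 family (Il12a, Il12b, Il23a and Il23r) and 4 of the 6 ligands of the gamma chain, IL-4 and IL-13 group. Of the 37, 20 were under 0.1 FPKM in all 18 tumours, 15 were listed at 0 in at least 9 tumours, and 6 reached 0.5 FPKM in some tumour. These 6 were Il27ra, Il36a, Il27, Il12b, Il17f and Il24. Il27ra, the IL-27 receptor, measured 0.201, 0.102 and 0.1201 FPKM in the cryoablation tumours, 0.0545, 0.194 and 0.311 after radiofrequency ablation and 0.944, 0.672 and 0.422 after cryo-thermal therapy. With anti-PD-1 it measured 0.694, 0.352 and 0.318 FPKM with cryoablation, 0.313, 0.415 and 0.342 with radiofrequency ablation and 0.537, 1.09 and 1.04 with cryo-thermal therapy. Il27, a cytokine of antigen-presenting cells, measured 0.0439, 0 and 0.0665 FPKM in the cryoablation tumours, 0.196, 0.467 and 0.0220 after radiofrequency ablation and 0.600, 0.654 and 0.0881 after cryo-thermal therapy. Its levels with anti-PD-1 were 0.733, 0 and 0.0872 FPKM with cryoablation, 0.332, 0.130 and 0.267 with radiofrequency ablation and 0.415, 0.539 and 0.734 with cryo-thermal therapy. For both genes cryoablation plus anti-PD-1 replicate 1 stood above the other tumours of its group, and with antibody the cryoablation and cryo-thermal groups overlapped for both. The other 4 reached 2.41 FPKM for Il36a, 0.580 for Il12b, 0.621 for Il17f and 0.865 for Il24.

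The lymphocyte cytokines themselves were near the lower end of the measurement. Il2 was at most 0.137 FPKM and listed at 0 in 8 tumours, Il21 at most 0.0749 FPKM, and Il4 at most 0.226 FPKM and listed at 0 in 14. The type 2 cytokines Il5 and Il13 reached 0.224 and 0.329 FPKM, both in cryo-thermal plus anti-PD-1 replicate 3. Il10 reached 0.454 FPKM in cryoablation plus anti-PD-1 replicate 1, and Il17a 0.114 FPKM. Il4i1 and Il4i1b, which match the symbol rule but are named for induction by IL-4 and are not interleukins, were at most 0.0338 FPKM. No limit of detection was computed for these genes, since the values are not counts.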

How the data were processed

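RNA-seq was made from 18 mouse tumours, 3 in each of 6 groups assigned from the treatment label. The authors deposited 1 table of FPKM values per gene; per the submitters' processing notes HTSeq 0.11.2 took part. Aligner, build, gene annotation and strand setting are not given in the sources used here. Relative depth, 0.985 to 1.018 between tumours, was read from the steps between low FPKM values. Fragment numbers per gene were not tested.

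Genes with a mean of at least 0.5 FPKM over all tumours were kept (12587 of 26538), and log2(FPKM + 1) was fitted with limma 3.58.1 in R 4.3.3, with a mean per group over all 18 tumours, an intensity trend, 2-sided tests and Benjamini-Hochberg adjustment over all genes kept. Fold changes are on that scale, which understates the change of low genes. The fit was tested on simulated data. A threshold of 0.05 on the adjusted p was used; an exact permutation test of 3 against 3 tumours cannot give a p below 0.1. Python 3.11.15 was used for the rest.

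The 38 genes are all accounted for. Those past the threshold in the F test or any comparison, and the 10 of highest mean FPKM, are given in every tumour; from each pathway list at most 4 genes are named, by the smallest F test p; 1 of these is not reported here. The genes and lists were chosen with earlier results of these data known. Alternatives were another pseudocount and filter, no filter, quantile normalization, array weights, a replicate block, a covariate for skin genes, fits of 2 groups, and fits without the skin-rich tumours or without each tumour. Same-numbered tumours of compared groups had deviations correlated at -0.441 to 0.591, with no comparison over 0.1 in all pairs, so the numbers were not taken to pair the tumours.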

Additional observations from a re-analysis of the deposited data

How the results depend on the processing

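Of 18 gene calls, 0 changed direction in any alternative, 177 of 269 combinations of call and alternative stayed past the threshold, and 3 calls did in all 15 (Il15ra, Il21r and Il2rg, cryo-thermal therapy against cryoablation without antibody). The number of the 38 genes past the F test, 14, was 6 with no filter on low values, 33 with array weights, 8 without the skin-rich tumours and 6 to 17 with 1 tumour left out. For cryo-thermal therapy against cryoablation it was 11, against 7 with no filter, 19 with array weights and 3 to 14 with 1 tumour left out. With antibody it was 5, against 2 with no filter, 17 with array weights, 0 with these 2 groups fitted alone and 0 to 13 with 1 tumour left out. Against radiofrequency ablation with antibody it was 1, against 0 with a pseudocount of 0.1, 0 with no filter, 13 with array weights, 0 with the skin covariate, 2 without the skin-rich tumours and 0 to 1 with 1 tumour left out. For anti-PD-1 added to cryoablation it was 1, against 0 with no filter, 2 with quantile normalization and 7 with array weights. It was 0 there with the skin covariate and 0 to 1 with 1 tumour left out. With these 2 groups fitted alone it was 2, and Il1r1, the call of the main fit, was not among them. Counts of 0 became 7 (cryo-thermal against radiofrequency), 23 (anti-PD-1 added to cryo-thermal therapy) and 4 (difference of anti-PD-1 effects) with array weights, which passed 10.9%, 42.4% and 20.9% of all genes there (4 of 38 is a smaller share), and the last 2 ran from 0 to 1 with 1 tumour left out, with 1 without cryo-thermal replicate 1. Array weights, whose estimate stopped before it converged, passed 71.9% of all genes in the F test and 43.4% in cryo-thermal therapy against cryoablation without antibody. With antibody they passed 33% there and 17.1% against radiofrequency ablation, and 15.7% for anti-PD-1 added to cryoablation. With the replicate block the counts were 10 for the F test, 10 and 6 for cryo-thermal therapy against cryoablation without and with antibody, 0 against radiofrequency ablation with antibody and 0 for anti-PD-1 added to cryoablation. Leaving out 1 tumour lowered some counts and raised others, up to 17 in the F test and 13 with antibody. The share of all genes past the test changed too, from 6.78% to 22.4% in the F test. For cryo-thermal therapy against cryoablation it ran from 3.65% to 21.3% without antibody and from 0.0159% to 8.36% with it. With no filter these 3 shares were 5.06%, 4.88% and 0.678%. The cause of these changes was not tested.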

Other observations

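The ratio of Il1rn, the IL-1 receptor antagonist, to the summed FPKM of its agonists Il1a and Il1b was computed in each tumour after the values had been seen, and is a description with no test. It was 0.268, 0.325 and 0.282 in the 3 cryoablation tumours, 0.292 ± 0.0294 (SD, n = 3). In the other 15 tumours it ran from 0.410 to 1.38, so that the cryoablation tumours were the 3 lowest of the 18.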
